A study of Mus musculus with 12 samples.

Results

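Neurotrophins are secreted growth factors, and their receptors and ligands are described here as a group of 6 genes. They are the receptor tyrosine kinase genes Ntrk2 (TrkB) and Ntrk3 (TrkC), the p75 receptor gene Ngfr, its co-receptor gene Sort1 (sortilin), and the ligand genes Bdnf and Ntf3. The group was selected on the estimated counts of the same libraries, with earlier results in view, so the members' own levels and fold changes are given as a description. Their calls in the fit over all genes are only counted, beside the share of all genes called, and support nothing. Of the 6 genes, 5 were listed among the 14610 genes of the deposited tables, and Ntf3 was listed in none. All 5 passed the filter on low counts in each comparison, and Ngfr was close to the low end of the listed genes. With 6, 7 and 5 counts in K27M cells in DMSO, Ngfr passed the comparisons with that group only through the other group. With 8, 8 and 18 counts in wild-type cells in DMSO, it passed the wild-type comparison with the inhibitor only through the inhibitor group. In both genotypes Ngfr could therefore only be tested as a rise with the inhibitor.

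The cells were PDGFB-driven mouse neural stem cells, used as a culture model of a childhood tumour of the brainstem (DIPG). PDGFB is a ligand of the PDGF receptors, and all groups carried it. Cells expressing K27M mutant histone H3.3 were kept for 12 days in 3 µM EPZ6438, which blocks EZH2, the enzyme that methylates histone H3 at K27, or in DMSO, and cells expressing wild-type H3.3 received the same 2 treatments. There were 12 libraries in 4 groups of 3 replicates. All cells grew on laminin and poly-D-lysine in medium with EGF and basic FGF. Whether replicates were separate cultures is not given in the labels. The p-values therefore measure only the spread between these libraries, which may be technical. The sources used here do not say whether a genotype was 1 clone.

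Trk receptors dimerize on ligand and phosphorylate their own intracellular tyrosines, which recruit adaptors that activate the MAP kinase, PI3 kinase and phospholipase C pathways. BDNF is the main ligand of TrkB and NT-3 that of TrkC, while p75 binds all neurotrophins and, together with sortilin, their uncleaved precursors. Truncated TrkB and TrkC forms keep the ligand-binding part and lack the kinase. Truncated TrkB is the main TrkB form of astrocytes, and full-length TrkB that of neurons.

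The forms of the Trk receptor genes differ where their coding sequences part. Ntrk2 lies on the plus strand at chr13:58806569-59133970 (GRCm38), and 2 of its 10 reference transcripts were listed. Unlisted transcripts, of Ntrk2 and of the genes below, lay below the level needed for listing or were not analysed by the authors. Ntrk2-201 codes for the full-length receptor of 821 residues. Ntrk2-202 codes for a truncated receptor of 476 residues, shares the first 465 with Ntrk2-201 and ends in 11 of its own. The coding sequences around the branch point, from GENCODE transcripts on GRCm38, are shown because the 2 forms behaved differently under the inhibitor. Lower case marks the last 24 shared bases and capitals mark the bases of that form alone.
Ntrk2-201: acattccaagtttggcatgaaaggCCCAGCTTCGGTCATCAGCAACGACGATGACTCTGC
Ntrk2-202: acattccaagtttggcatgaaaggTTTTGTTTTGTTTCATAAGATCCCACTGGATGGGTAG
In Ntrk2-202 the capitals run to the stop codon.

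Ntrk3 lies on the minus strand at chr7:78175959-78738012, and 4 of its 20 reference transcripts were listed. Ntrk3-201 codes for a full-length receptor of 825 residues. Ntrk3-205, of 839 residues, shares the first 711 with it, and the sequences beyond that point were not compared. Ntrk3-202 codes for a truncated receptor of 612 residues that shares the first 528 with Ntrk3-201. The 2 forms that held most of the Ntrk3 counts part as follows. Lower case again marks their last shared bases, and capitals mark the bases that these 2 do not share. Ntrk3-205 has the same capitals in this stretch as Ntrk3-201.
Ntrk3-201: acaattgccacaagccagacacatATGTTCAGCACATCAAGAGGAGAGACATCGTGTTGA
Ntrk3-202: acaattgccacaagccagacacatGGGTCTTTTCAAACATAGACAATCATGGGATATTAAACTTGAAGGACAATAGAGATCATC

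Of the 5 listed members, Ngfr had the largest fold changes with the inhibitor and between genotypes in DMSO. It lies on the minus strand at chr11:95568818-95587735 and has 1 reference transcript, Ngfr-201. Its RefSeq promoter at chr11:95587649-95587948 (GRCm38, minus strand, 250 bases before to 50 after the start) is shown with each CG in capitals.
Ngfr promoter: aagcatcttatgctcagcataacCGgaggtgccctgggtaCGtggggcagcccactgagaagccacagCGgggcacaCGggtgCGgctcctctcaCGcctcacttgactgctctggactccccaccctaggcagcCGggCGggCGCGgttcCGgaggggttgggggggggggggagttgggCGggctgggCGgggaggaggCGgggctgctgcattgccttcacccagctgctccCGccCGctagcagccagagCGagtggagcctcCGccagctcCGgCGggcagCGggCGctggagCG
The window holds 23 CG dinucleotides, and 21.5% of 32851 RefSeq promoters of that length held at least as many. CG reads the same on both strands, and the count is a description that says nothing of methylation or of binding.

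Bdnf lies on the plus strand at chr2:109674700-109727007, and 2 of its 11 reference transcripts were listed. They start at different first exons and end at the same exon: Bdnf-201 starts at position 109674700 and Bdnf-205 at position 109693563. The RefSeq promoter of Bdnf-201 at chr2:109674450-109674749 (GRCm38, plus strand) is shown because its transcript was estimated at 0 in every wild-type DMSO library.
Bdnf-201 promoter: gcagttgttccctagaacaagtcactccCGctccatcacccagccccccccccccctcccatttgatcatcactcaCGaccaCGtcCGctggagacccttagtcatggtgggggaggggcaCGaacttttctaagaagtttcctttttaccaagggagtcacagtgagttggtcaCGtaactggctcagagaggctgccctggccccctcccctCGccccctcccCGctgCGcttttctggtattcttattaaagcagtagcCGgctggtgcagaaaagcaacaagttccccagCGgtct
It holds 11 CG dinucleotides, a number that 41.4% of promoters reached or passed. The other members lie at chr3:108284082-108361511 (Sort1, plus strand) and chr6:126101412-126166910 (Ntf3, minus strand).

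Total estimated counts ranged from 7852018 to 23911456 per library, and the K27M DMSO libraries were the deepest. One library, wild-type DMSO replicate 1, was unlike the other 2 of its group. Per gene, the chi-square of its counts was 22.6 against replicate 2 and 19.02 against replicate 3, where replicates 2 and 3 gave 3.003 between them. Its deviations ran with gene GC content (Spearman -0.66 across genes, which are not independent replicates), and over the other libraries this correlation ranged from -0.48 to 0.54. The next largest chi-square between replicates was 9.71, between wild-type inhibitor replicates 1 and 2. Fold changes also ran with GC content across genes, with Spearman correlations of 0.27 for the inhibitor in K27M cells, -0.40 for the inhibitor in wild-type cells, -0.70 between the genotypes in DMSO, -0.19 between them under the inhibitor and 0.66 for the difference of the inhibitor response. Values without that library or with the GC trend removed are given beside the members' results they moved most. All 10 neural stem cell markers were listed, at a summed 7236 to 8454 normalized counts-per-million (CPM) over the 12 libraries. All 8 astrocyte, 6 oligodendrocyte precursor and 11 neuron markers were listed too, so listing alone does not set the labelled cell type apart. Of the microglia markers, 4 of 6 were listed in no table.

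Ntrk2 (TrkB), the receptor for BDNF, was lower under the inhibitor in both genotypes. It had 164, 164 and 165 CPM in K27M cells with the inhibitor, against 598, 599 and 601 CPM in K27M cells in DMSO. Wild-type cells had 201, 208 and 207 CPM with the inhibitor, against 596, 660.5 and 654 CPM in DMSO. Every inhibitor library lay far below every DMSO library, and the groups did not overlap.

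The inhibitor's log2 fold change of Ntrk2 was -1.87 ± 0.03 in K27M cells (SE), which is 3.65-fold lower, and -1.60 ± 0.05 in wild-type cells, which is 3.03-fold lower. The K27M response minus the wild-type response was -0.23 ± 0.06 on the log2 scale, and -0.15 with the GC trend removed. Without wild-type DMSO replicate 1, the wild-type response was -1.67 and the difference -0.26. Between genotypes, K27M cells averaged 599 ± 1.73 CPM and wild-type cells 637 ± 35.7 CPM in DMSO (SD, n = 3 each), and their ranges overlapped. That log2 fold change was -0.05 ± 0.03, and -0.16 with the GC trend removed. Under the inhibitor K27M cells averaged 164 ± 0.97 CPM and wild-type cells 205 ± 3.55 CPM, with no overlap and a log2 fold change of -0.32 ± 0.04. Among 13714 genes ordered by CPM, Ntrk2 stood at the 90.2 percentile in K27M cells with the inhibitor and at the 98.9 percentile in K27M cells in DMSO. In wild-type cells these were the 92.9 percentile with the inhibitor and the 98.9 percentile in DMSO.

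The truncated form made up most of the Ntrk2 counts in every library. Ntrk2-202 held 92.6 to 96.8% of the gene's estimated counts over the 12 libraries. Its level was 152, 152 and 156 CPM in K27M cells with the inhibitor, against 573, 580.1 and 578 CPM in DMSO. The wild-type libraries gave 190.1, 198 and 197 CPM with the inhibitor, against 573, 631 and 625 CPM in DMSO. Its groups separated as those of the whole gene did.

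Full-length Ntrk2-201 was also lower with the inhibitor, by a smaller fold. It had 11.8, 12.1 and 9.49 CPM in K27M cells with the inhibitor, against 24.2, 18.9 and 23.0 CPM in DMSO. Among wild-type libraries the values were 11.1, 10.04 and 10.5 CPM with the inhibitor, against 22.9, 29.3 and 28.9 CPM in DMSO. None of these pairs of groups overlapped. Its log2 fold change was -1.03 ± 0.15 in K27M cells, where that of Ntrk2-202 was -1.96 ± 0.03, and -1.37 ± 0.14 in wild-type cells, where that of Ntrk2-202 was -1.65 ± 0.06. The authors' deposited table, converted from the natural log, gave -1.03 and -1.96 for the 2 forms in K27M cells and -1.39 and -1.69 in wild-type cells.

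The share of Ntrk2 counts that fell to the full-length form was 7.23, 7.36 and 5.73% in K27M cells with the inhibitor, against 4.04, 3.16 and 3.83% in DMSO. Its wild-type values were 5.51, 4.84 and 5.06% with the inhibitor, against 3.84, 4.43 and 4.42% in DMSO. The inhibitor libraries were higher in both genotypes with no overlap. Counted per length, the mean share was 5.38% with the inhibitor and 2.90% in DMSO in K27M cells, and 4.07% with the inhibitor and 3.34% in DMSO in wild-type cells. The forms share their coding sequence upstream of the branch point, so the split is an estimate whose own error is not in these spreads.

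**Figure D1:**
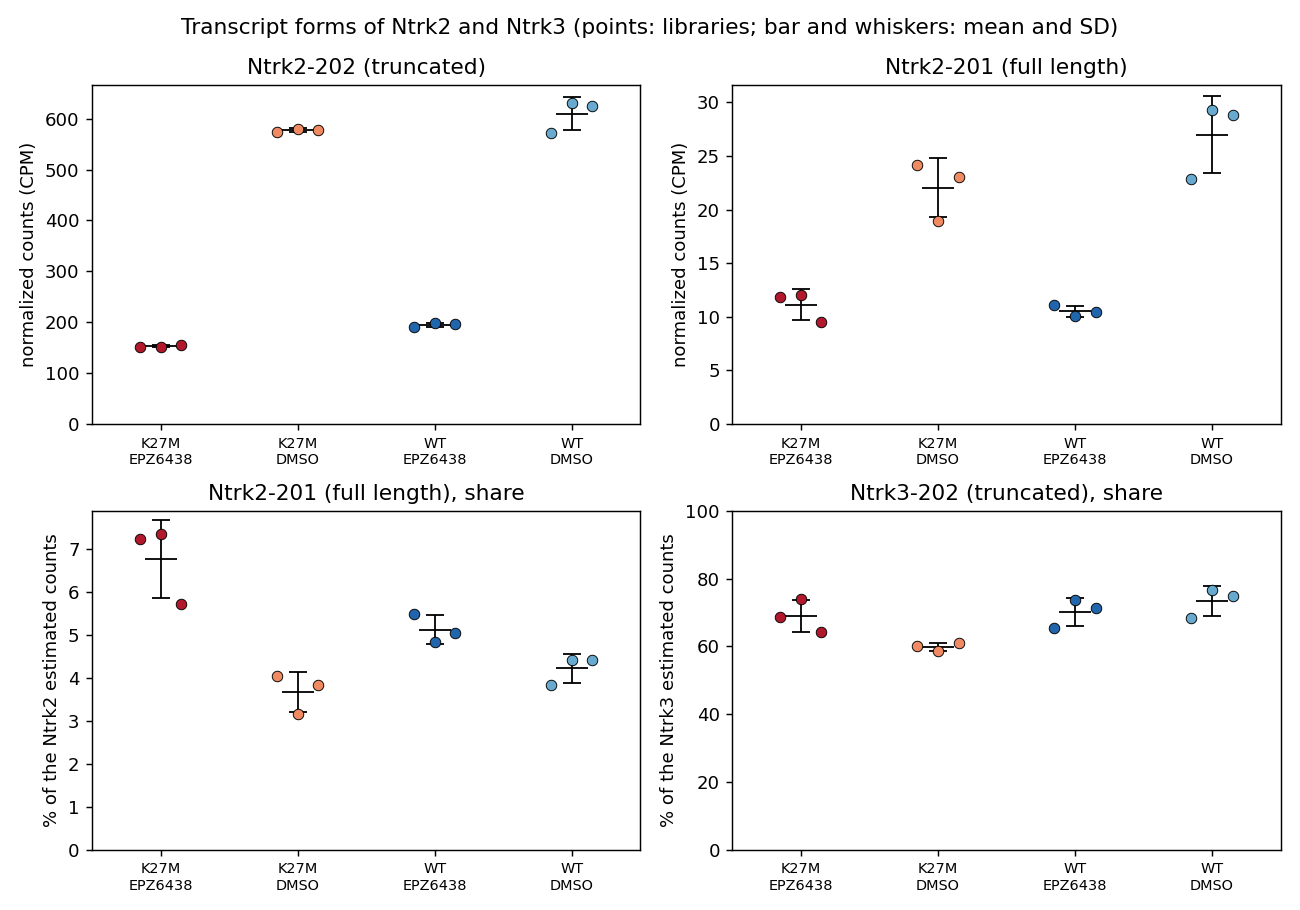
Normalized counts (CPM) of truncated Ntrk2-202 and full-length Ntrk2-201, the share of Ntrk2 counts in the full-length form, and the share of Ntrk3 counts in truncated Ntrk3-202, by group; points are libraries, bars and whiskers the mean and SD of 3. Both Ntrk2 forms are lower in the inhibitor groups while the full-length share is higher, with means of 6.77% against 3.68% in K27M cells and 5.13% against 4.23% in wild-type cells.

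Ntrk3 lay within a narrow range and was highest in wild-type cells in DMSO. It had 47.2, 45.3 and 44.9 CPM in K27M cells with the inhibitor, against 44.7, 43.9 and 41.1 CPM in K27M cells in DMSO. Wild-type cells had 46.6, 41.8 and 50.2 CPM with the inhibitor, against 57.7, 50.9 and 57.9 CPM in DMSO. The inhibitor libraries were slightly higher in K27M cells and lower in wild-type cells, in both cases without overlap.

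The log2 fold change of Ntrk3 under the inhibitor was 0.08 ± 0.05 in K27M cells and -0.24 ± 0.10 in wild-type cells, a difference of 0.35 ± 0.11. Against wild-type cells, K27M cells were lower in DMSO, at -0.32 ± 0.08 with no overlap, and stood at -0.01 ± 0.07 under the inhibitor, where the groups overlapped and the sign changed in some alternatives. Without wild-type DMSO replicate 1 the values were -0.24 for the wild-type response, -0.28 between genotypes in DMSO and 0.26 for the difference. With no TMM factor, the scaling that sets library totals on a common basis, the wild-type groups overlapped. Of the 4 group means, wild-type DMSO stood apart from both K27M groups, and the other 3 lay within 43.2 to 46.2 CPM, close to their spreads of up to 4.20 CPM.

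The truncated form Ntrk3-202 held a smaller share of the Ntrk3 counts in K27M cells in DMSO. The share was 59.96, 58.6 and 61.04% there, against 68.4, 76.7 and 74.9% in wild-type cells in DMSO, with no overlap. With the inhibitor it was 68.6, 74.0 and 64.3% in K27M cells and 65.5, 73.8 and 71.2% in wild-type cells, which overlapped. Between genotypes in DMSO, the log2 fold change was -0.63 ± 0.08 for Ntrk3-202 and 0.21 ± 0.18 for full-length Ntrk3-201. The authors' deposited table gave -0.66 and 0.18. Ntrk3-201 is 19703 bases long and Ntrk3-202 is 3977, so per length the truncated form was the main one, with group means of 68.4 to 85.4%. On that scale the DMSO groups overlapped, at 78.1, 56.9 and 70.1% in K27M cells and 76.8, 88.1 and 91.1% in wild-type cells. Ntrk3-205 and the noncoding Ntrk3-203 were estimated at 0 in some libraries and varied too much between replicates to be ordered.

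Ngfr, the p75 receptor gene, was among the lowest genes in DMSO and higher under the inhibitor in both genotypes. Its counts were 45, 56 and 35 in K27M cells with the inhibitor, against 6, 7 and 5 in K27M cells in DMSO. They were 25, 52 and 26 in wild-type cells with the inhibitor, against 8, 8 and 18 in wild-type cells in DMSO. Few counts stand behind each value, and the DMSO levels rest on 18 counts in all in K27M cells and 34 in wild-type cells.

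Normalized, Ngfr had 3.11, 4.42 and 3.16 CPM in K27M cells with the inhibitor, against 0.278, 0.308 and 0.210 CPM in DMSO. The wild-type libraries gave 3.15, 3.74 and 2.94 CPM with the inhibitor, against 0.606, 0.781 and 1.20 CPM in DMSO. Each inhibitor library was above each DMSO library. Every K27M DMSO library was also below the 3 wild-type DMSO libraries, whereas the inhibitor groups overlapped.

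The inhibitor's log2 fold change of Ngfr was 3.72 ± 0.30 in K27M cells, which is 13.1-fold, and 1.94 ± 0.30 in wild-type cells, which is 3.84-fold. The response was larger in K27M cells by 1.80 ± 0.43, and by 1.45 with the GC trend removed. Against wild-type cells, K27M cells had a log2 fold change of -1.66 ± 0.36 in DMSO, which is 3.16-fold lower, and of 0.11 ± 0.23 under the inhibitor. The lower level in K27M cells in DMSO stayed at -1.34 with the GC trend removed and at -1.85 without wild-type DMSO replicate 1, where the wild-type response was 1.70 and the difference of responses 1.95. Without single libraries the difference under the inhibitor ran from -0.08 to 0.23. In order of level, the inhibitor groups came first and did not differ beyond their spread, wild-type DMSO was next and K27M DMSO last.

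Markers of cells in which p75 is known were read beside Ngfr. Of 7 neural crest and Schwann markers, the 3 with values in every library summed to 96.4 to 106 CPM in K27M cells with the inhibitor and 112 to 119 CPM in DMSO. By the edgeR test 3 of the 4 tested rose and 1 fell in K27M cells, where 28.9% of all genes rose and 27.3% fell, and 2 of 3 rose in wild-type cells, where 21.4% of all genes rose. Their wild-type sums were 103 to 106 CPM with the inhibitor and 91.0 to 91.4 CPM in DMSO. The 8 of 10 mesenchymal and perivascular markers with such values summed to 52.7 to 63.3 CPM with the inhibitor and 6.83 to 7.68 CPM in DMSO in K27M cells. In wild-type cells they summed to 56.6 to 69.0 CPM with the inhibitor and 6.44 to 7.81 CPM in DMSO, with Dcn at 0 in both DMSO groups. By the edgeR test 6 of the 9 tested rose and 1 fell in K27M cells, where 28.9% and 27.3% of all genes did. Of the 7 tested in wild-type cells, 4 rose and 0 fell, where 21.4% and 20.7% did. The 11 neuron markers summed to 1550 to 1874 CPM with the inhibitor and 992 to 1062 CPM in DMSO in K27M cells, and to 1284 to 1757 CPM and 589 to 952 CPM in wild-type cells. By the edgeR test 9 of 11 neuron markers rose and 2 fell in K27M cells, where 28.9% and 27.3% of all genes did. In wild-type cells 9 rose and 0 fell, where 21.4% and 20.7% did. Between genotypes in DMSO only 2 neural crest and Schwann, 3 mesenchymal and perivascular and 9 neuron markers passed the filter on low counts. The others were too low in DMSO to be tested as a fall with the inhibitor. The part of such cells in the Ngfr result was not tested. In bulk libraries, a change in the number of cells of a type and a change in RNA per cell cannot be told apart.

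Markers of glial cells, in which truncated TrkB is known, were read beside Ntrk2 in the same way. The 8 astrocyte markers summed to 2192 to 2271 CPM with the inhibitor and 2686 to 2702 CPM in DMSO in K27M cells, and to 2561 to 2735 CPM and 3066 to 3087 CPM in wild-type cells. The 6 oligodendrocyte precursor markers summed to 1803 to 1925 CPM with the inhibitor and 2659 to 2867 CPM in DMSO in K27M cells, and to 1731 to 1964 CPM and 3268 to 4016 CPM in wild-type cells. By the edgeR test 3 of 8 astrocyte markers rose and 5 fell in K27M cells, and 1 rose and 4 fell in wild-type cells. Of 6 oligodendrocyte precursor markers, 1 rose and 4 fell in K27M cells, and 0 rose and 3 fell in wild-type cells. Of all genes, 28.9% rose and 27.3% fell in K27M cells, and 21.4% and 20.7% in wild-type cells. The sums therefore do not stand for each marker. None of these markers was at 0 in a whole group. Their part in the Ntrk2 result was not tested.

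Sort1, which encodes sortilin, the sorting receptor that pairs with p75 on precursor ligands, was lower under the inhibitor in both genotypes. It had 166, 173 and 162 CPM in K27M cells with the inhibitor, against 238, 233 and 233 CPM in DMSO. Among wild-type libraries the values were 189.7, 186 and 187 CPM with the inhibitor, against 222, 254 and 248 CPM in DMSO. The groups did not overlap in either genotype.

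The inhibitor's log2 fold change of Sort1 was -0.49 ± 0.03 in K27M cells and -0.33 ± 0.05 in wild-type cells, which are 1.41-fold and 1.25-fold lower. Their difference was -0.13 ± 0.07, and -0.21 with the GC trend removed. The wild-type value was -0.41 without wild-type DMSO replicate 1. Between genotypes Sort1 had a log2 fold change of 0.00074 ± 0.04 in DMSO, where the groups overlapped and the sign changed in some alternatives (0.07 with the GC trend removed), and of -0.17 ± 0.04 under the inhibitor, where they did not. Of its 3 listed transcripts, Sort1-201 held 91.3 to 94.1% of the counts as group means and Sort1-203 held 5.42 to 8.48%. Sort1-201 had a log2 fold change of -0.53 ± 0.04 under the inhibitor in K27M cells.

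Bdnf, the ligand of TrkB, was lowest in wild-type cells in DMSO. It had 10.8, 10.4 and 9.12 CPM in K27M cells with the inhibitor, against 10.2, 8.37 and 8.35 CPM in K27M cells in DMSO. Its wild-type values were 10.1, 5.46 and 9.06 CPM with the inhibitor, against 6.52, 3.02 and 3.07 CPM in DMSO. In both genotypes the treated and untreated ranges overlapped. The highest wild-type DMSO value belongs to replicate 1, the library that stands apart.

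In DMSO, K27M cells were above wild-type cells in every Bdnf library, with a log2 fold change of 1.11 ± 0.31. It was 0.43 with the GC trend removed and 1.61 without wild-type DMSO replicate 1. For the inhibitor in wild-type cells the value was 0.95 ± 0.38, and it was 0.53 with the GC trend removed and 1.40 without that replicate. For the inhibitor in K27M cells it was 0.18 ± 0.11, or 0.33 with the GC trend removed, and between genotypes under the inhibitor it was 0.35 ± 0.21, where the groups overlapped. The last value was 0.09 without wild-type inhibitor replicate 2 and 0.52 without replicate 1. The K27M response minus the wild-type response was -0.74 ± 0.39, and it was -0.18 with the GC trend removed and -1.27 without that replicate. The length-weighted GC content of Bdnf was 41.8%, and that of Ngfr was 58.6%.

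Bdnf-205 held most of the Bdnf counts. Bdnf-201 had 13.0, 0 and 0 estimated counts in K27M cells with the inhibitor, against 13.7, 33.9 and 13.0 in K27M cells in DMSO. It had 13.1, 5.32 and 13.1 in wild-type cells with the inhibitor, against 0 in all 3 wild-type DMSO libraries. A count of 0 allows up to 3 counts, which is 0.192 to 0.280 CPM in those libraries, for counting error only. Reads in the exon that all Bdnf forms share cannot tell the starts apart, and no fold is given.

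The ligand gene Ntf3, whose product is the main ligand of TrkC, was listed in no table with any of its 3 reference transcripts. The tables list transcripts that reach 5 counts in 3 or more of their 6 libraries, so Ntf3 lay below that level or was not analysed here.

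CPM per kilobase of transcript allow levels of different genes to be set side by side. In K27M cells with the inhibitor, Ntrk2 averaged 23.7 ± 0.14 and Sort1 24.6 ± 0.81 on this scale (SD, n = 3), and the 2 ranges overlapped. In K27M cells in DMSO, Ntrk2 averaged 86.5 ± 0.25 and Sort1 34.6 ± 0.46. In wild-type cells with the inhibitor they averaged 29.6 ± 0.51 and 27.6 ± 0.27, and in DMSO 91.9 ± 5.15 and 35.5 ± 2.44. Ntrk3 followed at 5.23 to 6.72 and Bdnf at 1.05 to 2.53 over the 4 group means, and Ngfr was lowest at 0.0770 to 1.03. The ratio of Ntrk2 to Ntrk3 per length was 4.28 in K27M cells with the inhibitor and 16.5 in K27M cells in DMSO, and 5.30 with the inhibitor and 13.7 in DMSO in wild-type cells.

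**Figure D2:**
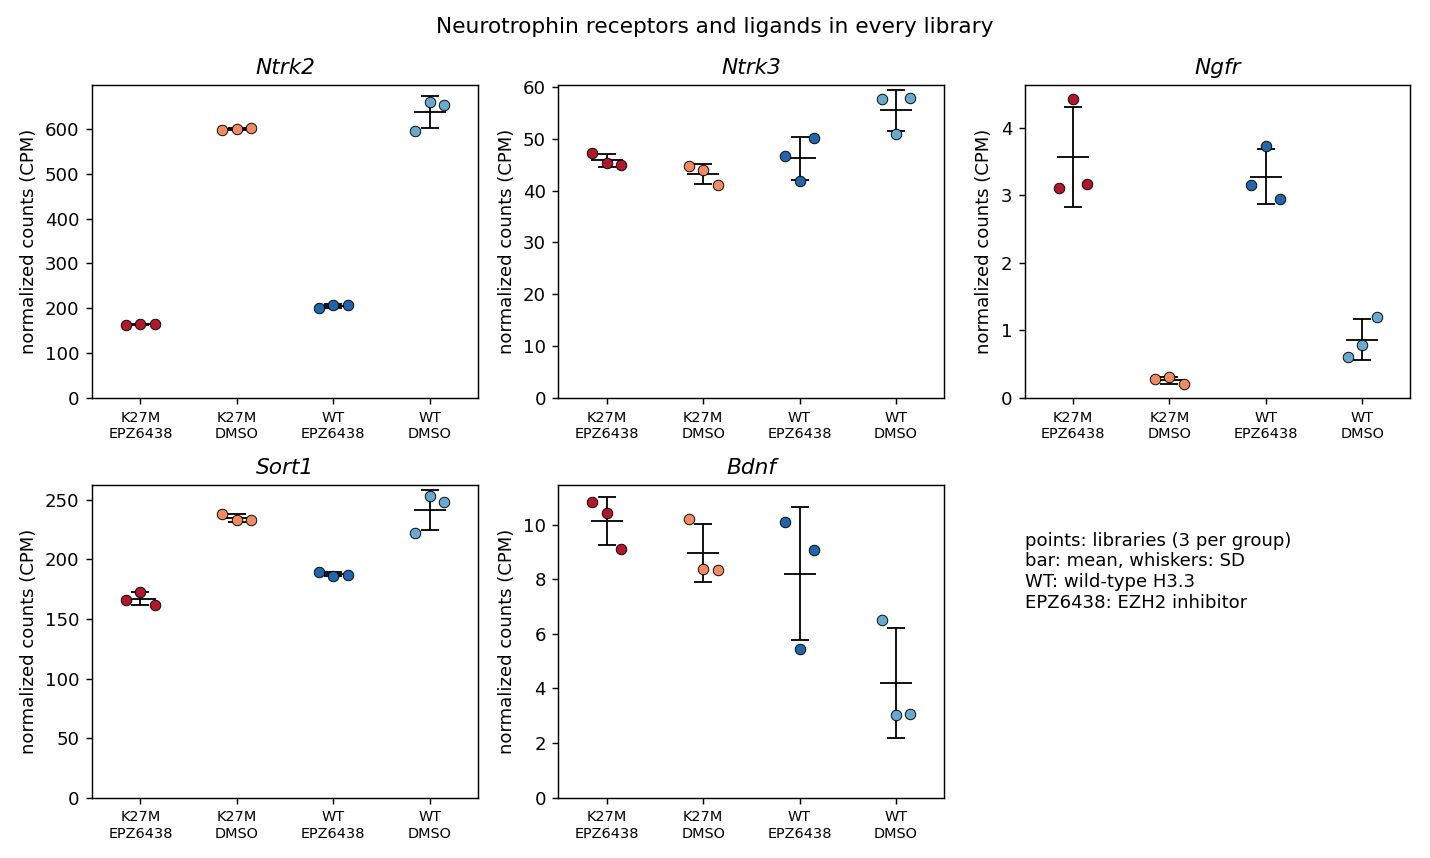
Normalized counts (CPM) of the 5 listed members in every library, by group, on axes that start at 0; points are libraries, bars and whiskers the mean and SD of 3. Ntrk2 and Sort1 sit lower and Ngfr higher in both inhibitor groups, with Ntrk2 at 164 and 205 CPM against 599 and 637 CPM in DMSO, while Bdnf is lowest in wild-type cells in DMSO at 4.20 CPM.

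The members' counts of calls are given beside the share of all genes called in each comparison, and nothing is read from them because these counts chose the members. A call is an adjusted p below 0.05 in edgeR's quasi-likelihood test. For the inhibitor in K27M cells, 1 of 5 members was called higher and 2 lower, where 28.9% of all tested genes were higher and 27.3% lower. For the inhibitor in wild-type cells, 1 was higher and 2 lower, where 21.4% of genes were higher and 20.7% lower. Between K27M and wild-type cells in DMSO, 1 was higher and 2 lower in K27M cells, where 29.8% of genes were higher and 30.4% lower. Between K27M and wild-type cells under the inhibitor, 1 was lower in K27M cells, where 0.567% of genes were higher and 1.23% lower. For the difference of the inhibitor response, K27M minus wild type, 2 were higher and 1 lower, where 20.2% of genes were higher and 16.1% lower. The DMSO groups are shared between these comparisons.

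**Figure D3:**
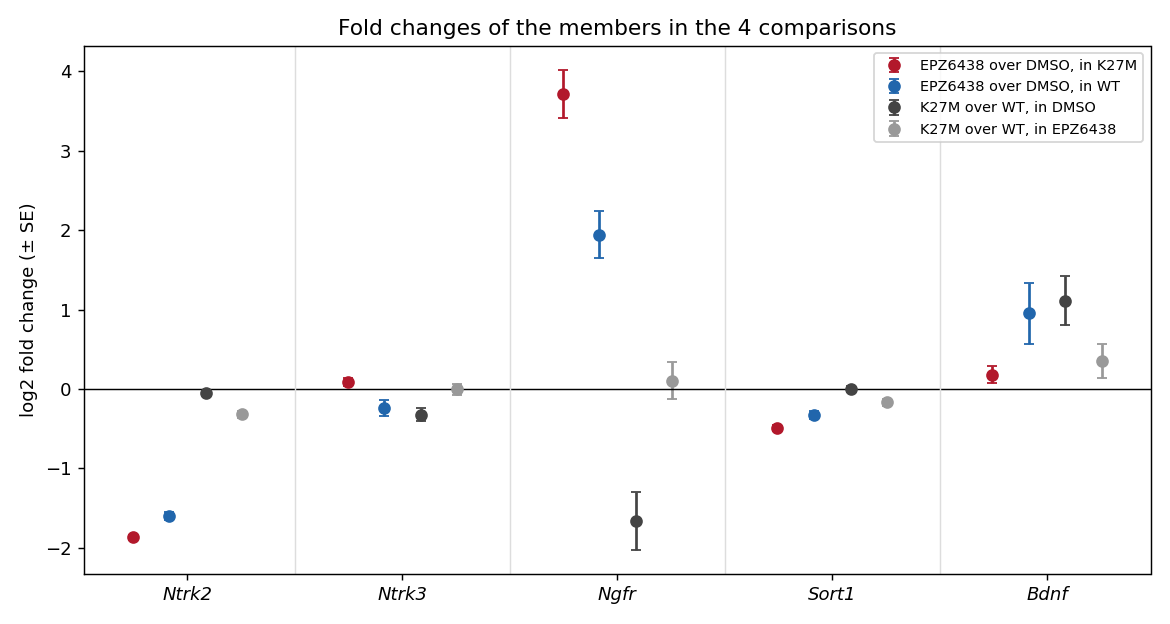
Log2 fold changes with their standard errors for the 5 members in the 4 comparisons between pairs of groups. Ngfr has the highest value, 3.72 under the inhibitor in K27M cells, and Ntrk2 the lowest, -1.87 in the same comparison; the K27M against wild-type values under the inhibitor lie between -0.32 and 0.35.

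The genes whose profile over the 12 libraries was most like that of a member were found among 10640 genes by the root mean square difference of log2 CPM centred on each gene's mean. For Ntrk2, whose own root mean square around its mean was 0.88, they were Gatm (0.09), which makes a creatine precursor, Acss2 (0.10), an acetyl-CoA synthetase, and Scrg1 (0.10). Gatm averaged 54.1 CPM in K27M cells with the inhibitor and 190.1 CPM in DMSO, and 71.0 CPM and 212 CPM in wild-type cells. For Sort1 (0.23) they were the desaturase gene Scd2 (0.04), Ddah1 (0.04) and Galc (0.04). For Bdnf (0.61) they were Suco (0.10), the channel kinase gene Trpm7 (0.11) and Cfap97 (0.11). For Ntrk3 (0.15) they were C2cd3, Tctn1 and Ext1, each at 0.07. Ngfr was left out because its mean was under 5 CPM. These are descriptions over the same libraries and share their depth and GC differences.

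The other genes of the pathway were read from lists of 67 genes: further ligands and receptors, sortilin family and co-receptors, Trk adaptors, p75 effectors, enzymes that process the precursors, and early genes that Trk signalling is known to induce. The lists were chosen with earlier results of these data known, so their shares are a description and support nothing. For the inhibitor in K27M cells, 31 of 62 tested genes rose and 12 fell. These are 50.0% and 19.4%, where 28.9% and 27.3% of all genes did. Their median log2 fold change was 0.13, against 0.01 over all genes. For the inhibitor in wild-type cells, 20 of 63 rose and 10 fell, which is 31.7% and 15.9%, where 21.4% and 20.7% of all genes did, with a median of 0.13, against 0.04. Between genotypes in DMSO, 10 of 62 were higher and 27 lower in K27M cells. These are 16.1% and 43.5%, where 29.8% and 30.4% of all genes were, with a median of -0.18, against -0.00356. Fold changes over all genes ran with GC content there (Spearman -0.70). Of the genes named below, some lost their call with the GC trend removed and others kept it. The part of that trend in the list shares was not tested. Under the inhibitor, 4 of 63 were lower in K27M cells than in wild-type cells and 0 were higher by edgeR, where 1.23% and 0.567% of all genes were. At an unadjusted p under 0.05 these were 12 and 7, and DESeq2 called 4 in all. For the difference of the inhibitor response, 16 of 63 were higher and 9 lower, which is 25.4% and 14.3%, close to the 20.2% and 16.1% of all genes. With the GC trend removed 15 were called.

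The precursor-processing genes held the largest rises of the lists. These genes encode proprotein convertases, which cut proneurotrophins, and other proteases. Under the inhibitor 5 of 7 tested rose and 1 fell in K27M cells, where 28.9% and 27.3% of all genes did. In wild-type cells 3 rose and 2 fell, where 21.4% and 20.7% did. Pcsk6 reached 43.7 ± 3.68 CPM with the inhibitor in K27M cells, against 4.65 ± 0.85 CPM in DMSO (log2 fold change 3.23 ± 0.11, edgeR adjusted p = 1.57e-08). In wild-type cells Pcsk6 had 37.0 ± 1.51 CPM with the inhibitor and 6.69 ± 0.43 CPM in DMSO (2.47 ± 0.09, edgeR adjusted p = 1.32e-05). Pcsk5 rose by 3.13 ± 0.06 in K27M cells (edgeR adjusted p = 3.2e-10) and by 2.77 ± 0.08 in wild-type cells (7.01e-06). Pcsk1 stayed low, at 1.24 ± 0.31 CPM with the inhibitor and 0.12 ± 0.09 CPM in DMSO in K27M cells (3.33 ± 0.50). In wild-type cells it was at 1.48 ± 0.22 CPM with the inhibitor and 0.05 ± 0.09 CPM in DMSO. Its DMSO counts were near 0, so its fitted folds are no bound. It passed the filter on low counts only through the inhibitor libraries, so it could only be tested as a rise. Pcsk1 is among the genes counted as risen in both genotypes, and its calls support nothing. Plat encodes tissue plasminogen activator, which makes the plasmin that cuts proBDNF. It was called for the difference of the response (0.44 ± 0.07, edgeR adjusted p = 0.000982) and fell in both genotypes, with log2 fold changes of -0.37 ± 0.03 in K27M cells (edgeR adjusted p = 5.78e-06) and -0.77 ± 0.05 in wild-type cells (7.89e-05).

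Among relatives of sortilin and co-receptors, 4 of 7 rose and 1 fell with the inhibitor in K27M cells, and 3 rose and 1 fell in wild-type cells. Of all genes, 28.9% rose and 27.3% fell in K27M cells, and 21.4% and 20.7% in wild-type cells. Sorcs2, whose product also pairs with p75, had 444 ± 18.5 CPM with the inhibitor and 272 ± 8.94 CPM in DMSO in K27M cells (0.71 ± 0.04, edgeR adjusted p = 2.63e-07). Wild-type cells had 404 ± 18.9 CPM and 332 ± 28.8 CPM (0.28 ± 0.08, edgeR adjusted p = 0.0235). Sorcs1 rose by 0.60 ± 0.04 in K27M cells (edgeR adjusted p = 6.32e-07) and by 0.76 ± 0.13 in wild-type cells (0.0046). Sorcs3 rose by 1.27 ± 0.24 in K27M cells (edgeR adjusted p = 0.00122) and was at 0.66 ± 0.28 in wild-type cells (0.0913). Kidins220, a Trk substrate, rose by 0.17 ± 0.03 and 0.42 ± 0.11 (edgeR adjusted p = 0.00204 and 0.0218). Lingo1, a partner of p75 in the Nogo receptor, fell, with log2 fold changes of -0.61 ± 0.06 in K27M cells (edgeR adjusted p = 1.22e-05) and -0.74 ± 0.11 in wild-type cells (0.00231). The other receptor partner Rtn4r, the sortilin relative Sorl1 and the p75 relative Nradd were not called in any comparison, with edgeR adjusted p of 0.0723 or more.

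Between genotypes in DMSO, 1 of these 7 genes was higher and 2 were lower in K27M cells, where 29.8% and 30.4% of all genes were. Sorcs2 was lower there, at 269 ± 7.71 CPM in K27M cells and 326 ± 28.6 CPM in wild-type cells (-0.28 ± 0.07, edgeR adjusted p = 0.0148), but at 0.01 with the GC trend removed. Sorcs3 was lower, at -0.83 ± 0.28 (edgeR adjusted p = 0.0388), and Kidins220 higher, at 0.31 ± 0.11 (0.0452). Both calls were lost with the GC trend removed, at -0.80 and 0.18. Lingo1, not called at -0.13 (edgeR adjusted p = 0.157), was called higher with that trend removed, at 0.23 (edgeR adjusted p = 0.00564).

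With the inhibitor, 7 of 21 adaptors rose and 7 fell in K27M cells, close to the 28.9% and 27.3% of all genes. In wild-type cells 3 rose and 3 fell, where 21.4% and 20.7% of all genes did. The adaptor gene Shc2 rose by 1.66 ± 0.10 in K27M cells (edgeR adjusted p = 4.72e-07) and by 1.62 ± 0.12 in wild-type cells (0.000137), while Shc4 fell, at -1.03 ± 0.05 (1.33e-07) and -1.04 ± 0.07 (8.44e-05). The next largest called changes were 0.71 ± 0.12 for Sh2b2 in K27M cells and 0.70 ± 0.08 for Sh2b3 in wild-type cells (edgeR adjusted p = 0.000552 and 0.000752). Of 18 p75 effectors, 8 rose and 3 fell in K27M cells, and 7 rose and 2 fell in wild-type cells, beside the same shares of all genes. Ndn, whose product necdin binds p75, had 194.6 ± 4.58 CPM with the inhibitor and 45.0 ± 0.78 CPM in DMSO in K27M cells (2.11 ± 0.04, edgeR adjusted p = 3.2e-10). The wild-type libraries gave 208 ± 25.6 CPM and 56.8 ± 6.13 CPM (1.87 ± 0.12, edgeR adjusted p = 6.09e-05). Psen2 (0.76 ± 0.13) and Maged1 (0.38 ± 0.03) followed in K27M cells (edgeR adjusted p = 0.000664 and 2.67e-06), and Ripk2 (0.82 ± 0.15) and Mapk8 (0.75 ± 0.18) in wild-type cells (0.00521 and 0.0158).

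Between genotypes in DMSO, 4 of 21 adaptors were higher and 7 lower in K27M cells, where 29.8% and 30.4% of all genes were. The same shares of all genes stand beside the counts of effectors and processing genes that follow. Sos2 (0.85 ± 0.13) and Sos1 (0.79 ± 0.20), exchange factors for Ras, were higher, and Irs2 (-0.72 ± 0.07) was lower (edgeR adjusted p = 0.00373, 0.0161 and 0.00102). Of 18 p75 effectors, 5 were higher and 7 lower, led by Mapk8 (0.70 ± 0.17), Ripk2 (0.52 ± 0.11) and Psen2 (-0.47 ± 0.10), with edgeR adjusted p of 0.0138, 0.00913 and 0.0102. Of 6 processing genes 4 were lower, among them Plat (-0.51 ± 0.04), Pcsk7 (-0.33 ± 0.07) and Cpe (-0.27 ± 0.03), with edgeR adjusted p of 0.000568, 0.00786 and 0.0015. With the GC trend removed the calls of Sos1 (0.01), Psen2 (-0.20) and Pcsk7 (-0.06) were lost, and Mapk8 lost its call and changed sign, to -0.09. Sos2 (0.45), Irs2 (-0.44) and Ripk2 (0.35) stayed called with smaller values.

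Of the early genes, 7 of 8 tested rose with the inhibitor in K27M cells, where 28.9% of all genes did. In wild-type cells 4 of 9 rose and 2 fell, where 21.4% and 20.7% did. Arc had 42.6 ± 2.53 CPM with the inhibitor and 16.6 ± 0.996 CPM in DMSO in K27M cells (1.36 ± 0.07, edgeR adjusted p = 1.54e-07), and 46.2 ± 4.84 CPM and 23.9 ± 2.09 CPM in wild-type cells (0.95 ± 0.11, 0.000716). Egr2 rose by 1.24 ± 0.13 and 1.15 ± 0.13 (edgeR adjusted p = 2.17e-05 and 0.000587), and Vgf by 1.11 ± 0.19 and 1.60 ± 0.20 (0.000699 and 0.00108). In DMSO, 7 of 9 were lower in K27M cells, where 30.4% of all genes were. Junb had 9.95 ± 0.18 CPM in K27M cells and 23.2 ± 2.58 CPM in wild-type cells (-1.22 ± 0.09, edgeR adjusted p = 0.000568). Ier2 was at -0.78 ± 0.08 and Nr4a1 at -0.76 ± 0.12 there (edgeR adjusted p = 0.000998 and 0.004). Removing the GC trend left smaller values that stayed called, at -0.83 for Junb, -0.42 for Ier2 and -0.47 for Nr4a1. Under the inhibitor Vgf (-1.01 ± 0.19), Nr4a1 (-0.57 ± 0.09) and Egr1 (-0.25 ± 0.04) were lower in K27M cells, with edgeR adjusted p of 0.0475, 0.0298 and 0.0306. Together with the adaptor gene Gab1 (-0.24 ± 0.05, edgeR adjusted p = 0.0482) they are the 4 pathway genes called there, and leaving out any single library of these 2 groups left 0 or 1 called. Many other signals induce these genes, and a part of Trk signalling in their changes was not tested.

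**Figure D4:**
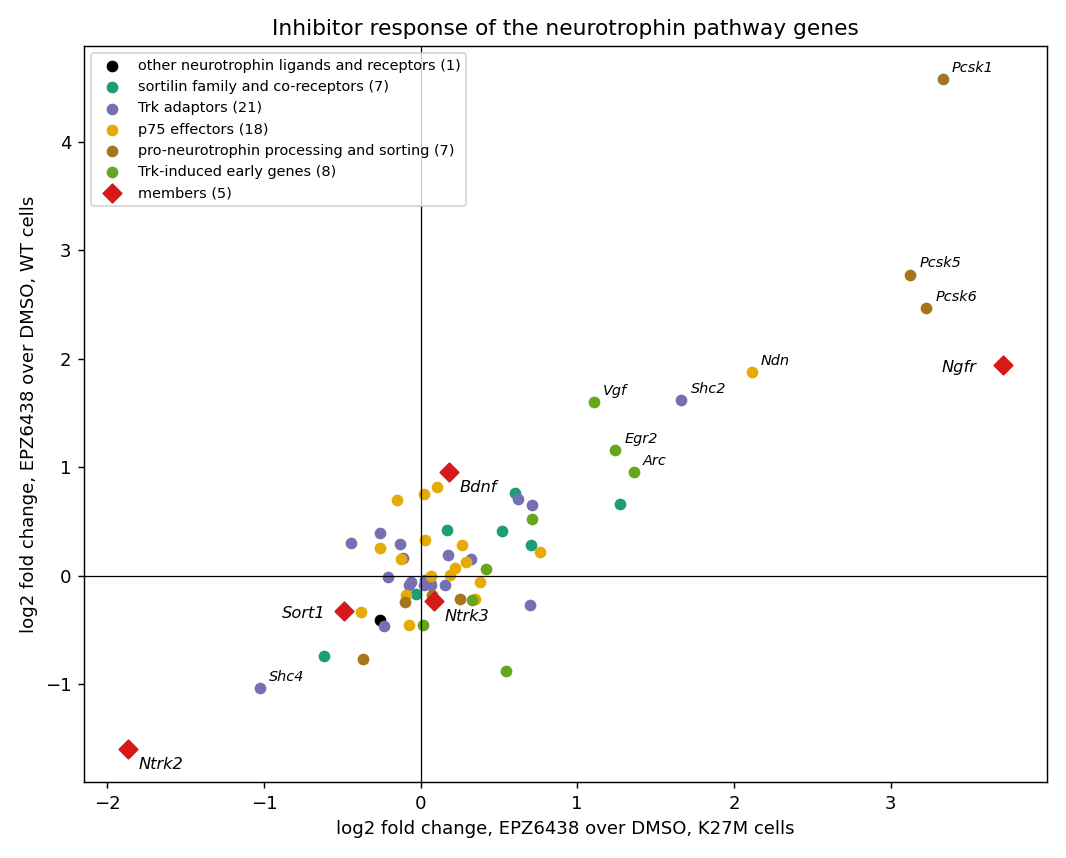
Log2 fold change with the inhibitor in K27M cells (horizontal) and in wild-type cells (vertical) for 62 genes of the pathway lists, coloured by list, and the 5 members as diamonds; the 2 axes use different libraries. Pcsk1, Pcsk5, Pcsk6, Ndn and Ngfr lie far up and right, Ntrk2 and Shc4 lie low and left, and most other genes lie near the centre.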

How the data were processed

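The members and gene lists were chosen with earlier results of these data known. RNA from 12 libraries was quantified with kallisto and compared with sleuth on GRCm38 (mm10), per the submitters' processing notes, with versions not given in those notes. The 4 deposited tables hold, per transcript, estimated counts that the authors divided by a size factor per library, p-values and q-values from the authors' comparisons, effects that the authors gave on the natural log scale, and variance terms deposited as a score with no fixed range. The size factors were undone, and each gene's transcripts were added up and the sums rounded. Rows with no gene name (0.448 to 0.574% of counts) were left out. A transcript is listed with at least 5 counts in at least 3 of the 6 libraries of a table.

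Fits used edgeR 4.0.16 (R 4.3.3, limma 3.58.1), each on the 6 libraries compared: filterByExpr, TMM, quasi-likelihood test and Benjamini-Hochberg adjustment over all genes, with calls at an adjusted p below 0.05. The difference of responses was an interaction over 12 libraries, from 37407 of 44294 transcripts with values in all of them. CPM carry the TMM factor of all 12 libraries for members and of the fitted libraries for other genes. Gene and transcript models came from GENCODE and promoters from RefSeq. Intervals and floors cover counting error only. Some genes of the lists are not reported here.

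The pathway genes named are every measured ligand, receptor, sortilin relative and co-receptor, and in each other list and comparison up to 3 called genes with the largest change. The 3 nearest genes are named for each member with a mean of at least 5 CPM. Alternatives were DESeq2 1.42.0, its size factors, no filter, a filter of 50 counts in 3 libraries, each replicate left out, a replicate block, GC trends removed, 1 fit over 12 libraries, the authors' effects, shares per length and CPM without TMM.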

Additional observations from a re-analysis of the deposited data

Results flagged for a closer look

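The inhibitor response of the pathway genes below differed between the 2 genotypes by edgeR's interaction test over 12 libraries. The share of pathway genes called, 25.4% higher and 14.3% lower, was close to the 20.2% and 16.1% of all genes. Values are the response in K27M cells minus that in wild-type cells, on the log2 scale.

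The difference was positive for Junb (1.454, edgeR adjusted p = 0.000806), an early gene whose response was 0.54 in K27M cells and -0.88 in wild-type cells. It was also positive for the adaptor gene Irs2 (1.009, edgeR adjusted p = 0.000153), with responses of 0.70 and -0.27. Among protease genes it was 0.8339 for Pcsk6 (edgeR adjusted p = 0.0330), 0.5092 for Pcsk7 (0.00582) and 0.4427 for Plat (0.000982). Sorcs2 had 0.4646 (edgeR adjusted p = 0.00628), the gamma-secretase subunit gene Psenen 0.594 (0.0362), Ier2 0.5922 (0.00779) and Fos 0.5044 (0.0350).

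It was negative for Bex1 (-0.8058, edgeR adjusted p = 0.00842), Sos2 (-0.7101, 0.0166), the kinase gene Mapk8 (-0.7017, 0.0136) and Sos1 (-0.6172, 0.0411). With the GC trend removed 8 calls were lost, with edgeR adjusted p between 0.0521 and 0.546. Of these, Pcsk6 stayed at 0.59, Psenen at 0.38, Sos2 at -0.37 and Fos at 0.34, while Pcsk7 was at 0.21, Ier2 at 0.18, Sorcs2 at 0.14 and Mapk8 at -0.07. Sos1 also lost its call and changed sign, to 0.02. The calls of Junb (1.01), Irs2 (0.69), Plat (0.41) and Bex1 (-0.998) held.

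Ntrk3 was also picked out, because each K27M inhibitor library lay above each K27M DMSO library while each wild-type inhibitor library lay below each wild-type DMSO library. In K27M cells the gap was narrow, from 44.7 CPM at most in DMSO to 44.9 CPM at least with the inhibitor. With no TMM factor the wild-type groups overlapped. The difference of responses was 0.3543. The fit over all genes includes Ntrk3 and calls it, but Ntrk3 was selected on these counts, so the difference was not tested on independent values.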

How the results depend on the processing

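Of 370 fold changes of members under the alternatives, 324 moved by less than 1 SD, 46 moved further and 0 changed the sign of a called value. The stricter filter leaves no Ngfr value. Against 7897 genes called between genotypes in DMSO, 5196 were called with the GC trend removed and a replicate block. Between genotypes under the inhibitor 234 were called, and 539 with the block, 741 with the GC trend removed and 787 with both. Pathway calls there were 4, and 8 with the GC trend removed, with or without the block. For the difference of responses 4823 genes and 25 pathway genes were called, and 2875 and 15 with the GC trend removed.

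With the GC trend removed, without and with the block, the log2 fold change between genotypes in DMSO was 0.01216 and 0.01222 for Sorcs2 (otherwise -0.28) and -0.08956 and -0.09226 for Mapk8 (otherwise 0.70), and the difference of responses was 0.01516 and 0.01291 for Sos1 (otherwise -0.62). The cause was not tested. Of 1374 values of named pathway genes, 1236 kept their side of the threshold, 111 lost it, 21 gained it and 6 changed sign.

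Leaving out 1 library gave 5032 (without K27M DMSO replicate 2) to 9279 calls (without wild-type DMSO replicate 1) between genotypes in DMSO, and 25 to 43 pathway calls. The inhibitor gave 6626 to 7679 calls and 38 to 41 pathway calls in K27M cells, and 3344 (without wild-type DMSO replicate 3) to 7702 (without replicate 1) and 22 to 42 in wild-type cells. Between genotypes under the inhibitor there were 17 (without K27M inhibitor replicate 3) to 195 calls and 0 to 1 pathway calls, and for the difference of responses 3393 to 6975 and 17 to 32.

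Replicate numbers shared between groups were not used as pairs. Deviations of same-numbered libraries correlated at -0.053 to 0.264, with 0.241 and 0.264 between the wild-type groups for replicates 1 and 2. Correlations of deviations with GC content were -0.66, -0.16, -0.47 and -0.48 for replicate 1 of wild-type DMSO, K27M DMSO, wild-type inhibitor and K27M inhibitor. For replicate 2 they were 0.54, -0.27, 0.54 and 0.45. A batch shared by replicate number was not tested. The block gave 7121 calls between genotypes in DMSO and 5914 for the difference. With the inhibitor it gave 7538 in K27M cells (7598 without the block) and 7132 in wild-type cells (5420 without it). Per length, 21 of 42 transcript shares moved by over 1 SD. Depth limits Ngfr and Bdnf most.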
